A study of Mus musculus with 12 samples.

Results

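The sodium pump beta subunit genes Atp1b1, Atp1b2 and Atp1b3 and the potassium channel subunit gene Kcnv2 were followed as 4 genes, chosen by name, of the 56748 entries in a table of scaled counts and of the 55372 genes in a table of length-scaled transcript levels (TPM). All 4 were found in both tables. The 12 libraries came from 2-month-old mice in 4 groups of 3. Control mice (labelled Abca4+/+, with RiboTag and i75-Rod-Cre) and knockout mice (labelled Abca4-/-, with RiboTag and i75-Rod-Cre, called Abca4Ko here) were each sampled as total retinal lysate, called retina here, and as rod TRAP. RiboTag puts an epitope tag on a ribosomal protein wherever Cre is active, and the Cre here is driven by the rhodopsin promoter. The pulled-down RNA is thus meant to be ribosome-bound RNA of rods, with some RNA of other cells left, as the markers below show. Both genotypes carried the tag and the Cre, and tissue was frozen after perfusion with cycloheximide. ABCA4 is the outer segment transporter that clears retinoid by-products from disc membranes, and its loss is a model of Stargardt disease. Since both kinds of library are bulk samples, fewer cells of a type and less RNA per cell cannot be told apart. Rod TRAP and retina also differ in ribosome-bound against total RNA and in cDNA input (10 ng and 5 ng). The design cannot tell these apart from cell type.

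The sodium pump exports sodium and imports potassium with energy from ATP. An alpha subunit does the transport and a beta subunit, a glycoprotein with 1 membrane span, brings it to the cell surface and tunes its affinity for ions. In rods the pump sits in the inner segment, where it balances the sodium that enters through the cyclic nucleotide-gated channel of the outer segment in darkness. KCNV2 is a modifier subunit that forms no channel alone but joins other voltage-gated potassium channel subunits of the inner segment, and its mutation causes a human cone dystrophy with a supernormal rod response. The comparisons asked which beta subunit rods carry compared with the whole retina, and whether any of the 4 genes changed with loss of Abca4.

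Atp1b1 and Atp1b3 are both on the minus strand of GRCm38, Atp1b1 (ENSMUSG00000026576) on chromosome 1 and Atp1b3 (ENSMUSG00000032412) on chromosome 9. Atp1b2 (ENSMUSG00000041329) is on the minus strand of chromosome 11 and Kcnv2 (ENSMUSG00000047298) on the plus strand of chromosome 19. The RefSeq promoter table (GRCm38.p6, from 250 bases before to 50 bases after a start) held 3 promoters of 2 of the 4 genes, those of Atp1b1 and Atp1b3. Atp1b2 and Kcnv2 had no promoter there to compare, so a link between promoter and level in rods was not tested. The Atp1b1 promoter at chr1:164458306-164458605 and the Atp1b3 promoter at chr9:96364382-96364681, both on the minus strand, are shown 5′ to 3′. They shared a high content of CG dinucleotides, which the choice of genes did not use. Capitals mark each CG dinucleotide.
Atp1b1: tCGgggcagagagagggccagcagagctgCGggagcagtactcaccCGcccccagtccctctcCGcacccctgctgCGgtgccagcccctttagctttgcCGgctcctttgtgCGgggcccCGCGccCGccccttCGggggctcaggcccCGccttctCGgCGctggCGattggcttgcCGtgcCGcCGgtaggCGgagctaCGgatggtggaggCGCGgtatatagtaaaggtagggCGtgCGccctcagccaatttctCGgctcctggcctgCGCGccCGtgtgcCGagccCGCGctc
Atp1b3: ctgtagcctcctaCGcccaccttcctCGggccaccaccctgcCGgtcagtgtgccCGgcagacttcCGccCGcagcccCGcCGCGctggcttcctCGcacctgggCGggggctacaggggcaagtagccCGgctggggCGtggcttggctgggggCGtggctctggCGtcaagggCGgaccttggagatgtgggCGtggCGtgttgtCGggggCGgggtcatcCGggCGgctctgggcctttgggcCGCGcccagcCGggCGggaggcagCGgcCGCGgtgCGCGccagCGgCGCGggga
The Atp1b1 window was 71% G and C with 31 CG dinucleotides, and the Atp1b3 window 76% with 34. A further Atp1b3 window was 74.7% with 39. Over all 32851 promoters the median was 52.7% and 7 CG dinucleotides. Searched on both strands, the letters TAATCC, the core that the photoreceptor factor CRX binds, were in none of the 3 windows and in 7.06% of all promoters. The letters TGCTGA, part of the element that the rod factor NRL binds, were likewise in none of the 3 and in 19.5% of all.

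The label check came from Abca4 itself. Its scaled counts in rod TRAP were 61017, 53193 and 53533 in control and 195, 365 and 13156 in Abca4Ko, and in retina 38929, 37619 and 38090 against 153, 366 and 8124. Replicate 3 of the Abca4Ko label stood apart, with a clear Abca4 signal in both of its libraries, so results that use them are also given without them where they change. Rod TRAP carried the rod signature. All 15 rod marker genes were higher in control rod TRAP than in control retina, while all 10 Müller glia, all 8 ganglion cell, all 8 amacrine cell and 8 of 10 bipolar cell markers were lower. The Müller glia marker sum in control rod TRAP was 2.81% of that in retina, the ganglion cell sum 2.07%, the amacrine sum 8.06% and the cone sum 25.9%. None of the rod, Müller glia, bipolar, amacrine or ganglion cell markers was at 0 in a whole group.

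Atp1b2 had by far the highest level of the beta subunit genes in rod TRAP. In control rod TRAP its TPM were 2788.9, 2518 and 2570 in replicates 1, 2 and 3, and in Abca4Ko rod TRAP 2384.3, 2558 and 2533.6. Atp1b3 stood at 10.3, 8.7 and 8.6 in control rod TRAP and at 8.2, 9.5 and 9.1 in Abca4Ko rod TRAP. Atp1b1 was lower still, at 3.7, 6.3 and 5.2 in control and at 2.4, 4.4 and 3.5 in Abca4Ko. Within every rod TRAP library the order was Atp1b2, Atp1b3, Atp1b1, with no overlap between the ranges of the 3 genes. By mean TPM over the 6 rod TRAP libraries Atp1b2 ranked 32 of all genes, Kcnv2 183, Atp1b3 8045 and Atp1b1 9485.

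In the retina the order of the minor subunits was the other way round. Atp1b1 had 237.9, 320.6 and 217.9 TPM in control and 166.9, 292.2 and 336.9 in Abca4Ko. Atp1b3 had 83.4, 87.2 and 78.1 TPM in control and 55.9, 91.9 and 96.2 in Abca4Ko. Atp1b1 lay above Atp1b3 in all 6 retina libraries and below it in all 6 rod TRAP libraries. The ratio of Atp1b1 to Atp1b3 was 3.11 ± 0.495 in control retina and 0.563 ± 0.186 in control rod TRAP (TPM, SD, n = 3 each). In Abca4Ko the ratio was 3.22 ± 0.261 in retina and 0.380 ± 0.0853 in rod TRAP. Atp1b2 was the highest of the 3 in retina too, with 1748, 1971.3 and 1893.2 TPM in control and 1661.6, 1754 and 1651.8 in Abca4Ko. By mean TPM over the 6 retina libraries Atp1b2 ranked 58, Atp1b1 521, Kcnv2 648 and Atp1b3 1760. The ranges of Atp1b1 and Kcnv2 overlapped in retina (166.9 to 336.9 and 114.2 to 280.5 TPM), so these neighbours were not separated beyond their spread.

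**Figure D1:**
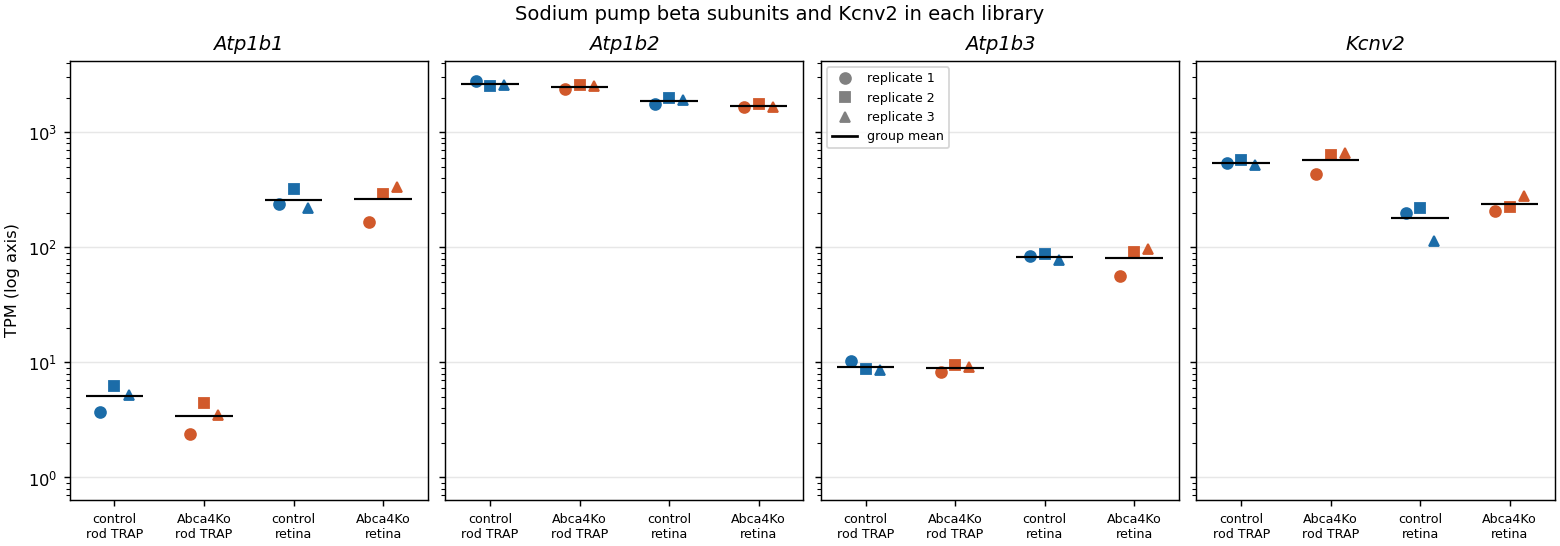
TPM of the 4 genes in each of the 12 libraries on a log axis, by genotype (colour), replicate number (marker) and fraction, with a black line at each group mean. Atp1b1 and Atp1b3 lie far lower in rod TRAP than in retina, Atp1b2 has a mean of 2558.8 in rod TRAP and 1780 in retina, and Kcnv2 is higher in every rod TRAP library than in any retina library.

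Atp1b2 made up nearly all beta subunit message in rod TRAP. Its share of the summed TPM of the 3 genes was 99.5% ± 0.0470 in control rod TRAP and 99.5% ± 0.0485 in Abca4Ko rod TRAP (SD, n = 3), and 84.6% ± 1.81 in control retina and 83.1% ± 4.58 in Abca4Ko retina. The share of Atp1b1 was 0.194% ± 0.0587 in control rod TRAP and 11.6% ± 1.77 in control retina. Atp1b3 took 0.348% ± 0.0177 and 3.75% ± 0.244. The lowest share of Atp1b2 in a rod TRAP library was 99.4%, and its highest in a retina library was 88.2%, so the fractions did not overlap. A share of a sum is not independent of the other shares, and these are given as a description with no test. The widest spread was in Abca4Ko retina, where Atp1b2 ranged from 79.2% in the library labelled replicate 3 to 88.2% in replicate 1.

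**Figure D2:**
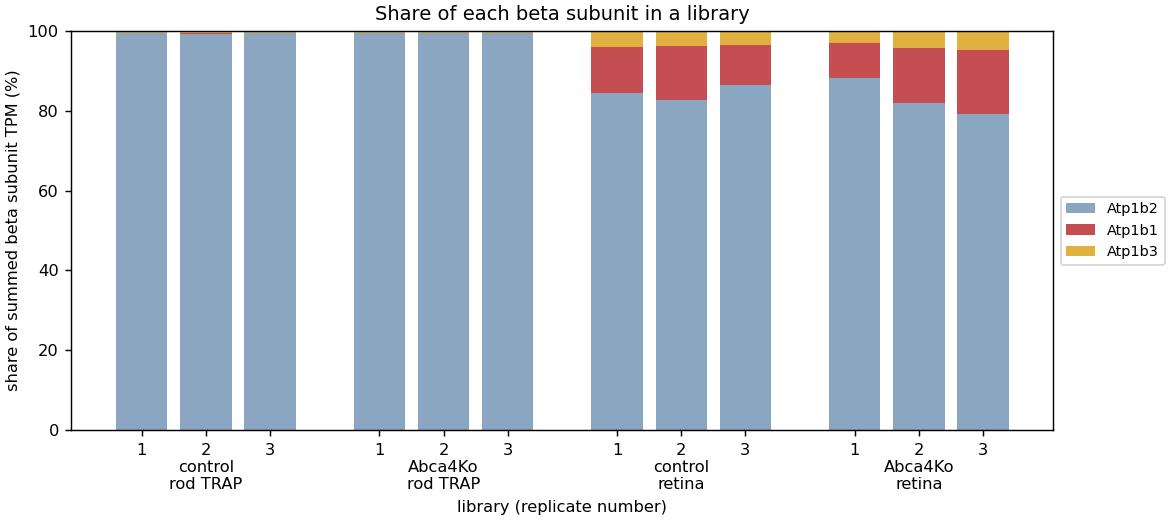
Share of each beta subunit gene in the summed TPM of the 3 genes, in percent, with a stacked bar for each of the 12 libraries. Atp1b2 fills the rod TRAP bars to between 99.4% and 99.6%, and Atp1b1 and Atp1b3 are visible parts of the retina bars.

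Atp1b1, which encodes the widespread beta-1 subunit, was among the transcripts most depleted from rod TRAP relative to retina. In counts scaled by the authors to a common library total, control rod TRAP held 65, 118 and 91 and control retina 5348, 6377 and 4644. The log2 fold change of rod TRAP over retina was -5.11 ± 0.18 (SE; limma adjusted p = 2.649e-10), and 0.86% of the 16286 genes tested in control had a lower value. In Abca4Ko the scaled counts were 50, 81 and 68 in rod TRAP and 3879, 6326 and 6780 in retina, which gave -5.65 ± 0.20 on the log2 scale (limma adjusted p = 2.744e-08). As a percent of the retina mean TPM, the rod TRAP mean was 1.96% in control and 1.29% in Abca4Ko. In the same libraries the ganglion cell marker sum was at 2.07% and 2.03% and the Müller glia marker sum at 2.81% and 3.35%. The astrocyte sum was at 2.03% and 1.82%, and the microglia sum at 1.88% and 1.25%. Over all cell types listed other than rods, such sums ran from 0.727% (lens) to 25.9% (cones) in control. The lens sum was uneven between libraries, at 26179, 42.5 and 89.4 TPM in control retina and 18.4, 8736.9 and 12984 in Abca4Ko retina. What part RNA of cells other than rods had in the Atp1b1 left in rod TRAP was not tested.

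Atp1b3, the gene of the beta-3 subunit, was depleted less. Its scaled counts were 165, 136 and 137 in control rod TRAP and 1818, 1726 and 1679 in control retina, and the log2 ratio of rod TRAP to retina was -2.81 ± 0.14 (SE; limma adjusted p = 1.771e-09). In Abca4Ko they were 147, 157 and 146 in rod TRAP and 1305, 1934 and 1921 in retina, with -2.84 ± 0.15 (limma adjusted p = 1.348e-07). The rod TRAP mean TPM was 11.1% of the retina mean in control and 11.0% in Abca4Ko, above the percents of the Müller glia, ganglion and amacrine marker sums (amacrine 8.06% and 6.93%) and below those of the bipolar (22.0% and 23.01%) and cone sums (25.9% and 41.3%). The vascular sum was 11.4% in control and 5.43% in Abca4Ko. The bipolar sum includes 2 markers called higher in rod TRAP in each genotype, in control Otx2 (log2 fold change 1.33) and Prkca (1.57). The other 8 bipolar markers were lower. The median of all 10 was -4.82 in control and -5.13 in Abca4Ko, below the values of Atp1b3. Between libraries of the same genotype and number, retina held 6.82 to 10.6 times the rod TRAP TPM of Atp1b3 and 41.9 to 96.3 times that of Atp1b1. These ranges did not overlap.

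Atp1b2, the gene of the beta-2 subunit, had a positive log2 ratio of rod TRAP to retina, 0.73 ± 0.11 in control (SE; limma adjusted p = 5.585e-05) and 0.73 ± 0.20 in Abca4Ko (limma adjusted p = 0.007775). In TPM the rod TRAP mean was 140% of the retina mean in control and 148% in Abca4Ko, and each of the 6 numbered pairs was higher in rod TRAP, by 1.28 to 1.60 times. This difference depended on how rod TRAP and retina libraries were put on 1 scale. With the authors' scaling alone, the means were 44200 in rod TRAP and 43609 in retina for control and 44158 and 40438 for Abca4Ko, and the log2 fold change was 0.08 in control (limma adjusted p = 0.401843) and 0.19 in Abca4Ko (limma adjusted p = 0.176215). That scaling put the median of all genes at -0.62 in control and -0.49 in Abca4Ko, against -0.029 and 0.0042 after the trimmed mean of M values (TMM) rescaling used here. Relative to that median, Atp1b2 lay higher under both scalings. Without the libraries labelled Abca4Ko replicate 3 the value in Abca4Ko was 0.62 (limma adjusted p = 0.106406). Over all alternatives the lowest and highest limma adjusted p were 3.986e-07 and 0.4018 for control, against 0.0003211 and 0.1762 for Abca4Ko.

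Kcnv2 was higher in rod TRAP than in retina. In control rod TRAP it had 540.8, 572.4 and 520.9 TPM, and in control retina 199.3, 221.2 and 114.2. The log2 fold change was 1.98 ± 0.17 (SE; limma adjusted p = 3.487e-07), and 92.2% of genes tested had a lower value. In Abca4Ko it had 432.4, 635.9 and 659.3 TPM in rod TRAP and 207.5, 223.7 and 280.5 in retina, a log2 ratio of 1.52 ± 0.18 (limma adjusted p = 3.218e-05). The rod TRAP mean TPM was 306% of the retina mean in control and 243% in Abca4Ko, while the rod marker sum was 191% and 212%. Control retina replicate 3 was the lowest library, and without control replicate 3 in both fractions the control value was 1.68 (limma adjusted p = 6.04291e-08).

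All 4 genes passed the test in both genotypes, 2 in each direction. The background for that count was high, with 75.4% of 16286 genes called in control (36.6% higher in rod TRAP, 38.8% lower) and 64.1% of 16036 in Abca4Ko (30.4% higher, 33.7% lower). For each gene the libraries of the fractions did not overlap, which held for 79.7% of genes in control (39.1% higher, 40.5% lower) and 69.4% in Abca4Ko (33.7% higher, 35.7% lower). By size of the difference, Atp1b1 lay toward the low end and Kcnv2 toward the high end of all genes. Atp1b2 was nearer the middle, with 73.3% of genes lower in control. Fold changes on the log2(CPM + 0.5) scale understate the change of genes with low values, such as Atp1b1 in rods.

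**Figure D3:**
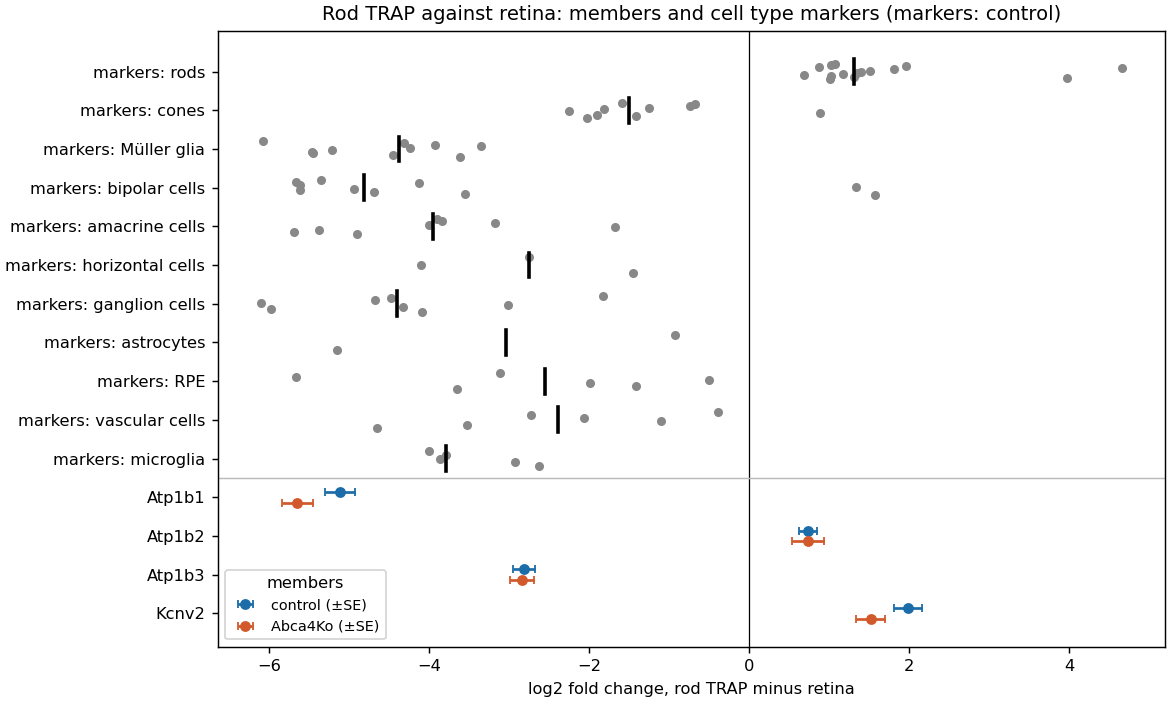
Log2 fold change of rod TRAP minus retina for the 4 genes in control and Abca4Ko (coloured points with ± SE) and for marker genes of 11 cell types in control (grey points, with a black bar at the median). Atp1b1 at -5.11 and -5.65 lies among the Müller glia, bipolar and ganglion cell markers, Atp1b3 at -2.81 and -2.84 above most of them, and Atp1b2 and Kcnv2 lie on the side of the rod markers.

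Genes that work with the pump were read against the same background, and against which fraction let them into the test. A gene seen at 10 or more scaled counts in retina libraries but not in at least 3 rod TRAP libraries enters because it is high in retina, and of 3281 such genes in control 3070 were called lower and 2 higher. Genes that passed in both fractions by themselves, as the 4 members did, numbered 12864 in control. Rod TRAP was higher for 45.4% of them and lower for 25.2%, and their median was 0.25 on the log2 scale. In Abca4Ko they numbered 12870, with 37% higher and 20.5% lower. Of 17 genes in a list of further pump subunits, FXYD regulators and pump-interacting proteins, 12 were tested in control, with 2 higher and 9 lower, and 7 of these 9 passed through retina alone. Of the 5 that passed in both fractions 2 were higher and 2 lower, with a median of 0.13, and the same counts held in Abca4Ko. Atp1b4, a divergent relative of the beta subunit genes, was at 0 in all 12 libraries. Fxyd1, the gene of phospholemman, a small regulator of the pump, had 3.27 ± 1.46 TPM in control rod TRAP and 214.8 ± 39.1 in control retina (SD, n = 3). It was among the genes that passed through retina alone, and its difference is given as values with no test.

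The potassium and hyperpolarization-activated channel genes split in both directions in rod TRAP. Of a list of 18, 16 were tested in control, with 3 higher and 13 lower, but 9 of the 13 passed through retina alone. Of the 7 that passed in both fractions 3 were higher and 4 lower, with a median log2 fold change of -1.35, beside the 45.4% and 25.2% of all such genes. In Abca4Ko the counts of the 7 were the same, with a median of -0.57. Kcnj14, an inward rectifier gene, had 858.5 ± 69.8 TPM in control rod TRAP and 746.0 ± 3.48 in control retina, above Kcnv2 in both. Its log2 fold change was 0.50 ± 0.12 (SE; limma adjusted p = 0.002261) in control, and under the authors' scaling alone, which shifts all genes down as described for Atp1b2, it was -0.14 (limma adjusted p = 0.2152). Relative to the median of all genes these values were 0.53 and 0.48. In control Kcnj14 was also not called as log2(TPM + 1) or log2(TPM + 0.1), at 0.20 in each (limma adjusted p = 0.07033 and 0.06599). The same held in a fit on all 12 libraries, at 0.42 (limma adjusted p = 0.06271). In Abca4Ko it was 0.59 (limma adjusted p = 0.04528), and 0.49 with scaling by the median of ratios (limma adjusted p = 0.06879).

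Of 12 genes that let cations into rods or pass calcium and chloride, all tested in control, 8 were higher and 4 lower in rod TRAP, and 1 of the 4 passed through retina alone. Of the 11 that passed in both fractions 8 were higher and 3 lower, beside 45.4% and 25.2% of all such genes, with a median log2 fold change of 1.25. In Abca4Ko 8 of the 11 were higher and 2 lower, beside 37% and 20.5%. Cnga1 and Cngb1 encode the rod cyclic nucleotide-gated channel, the path of the sodium that the pump removes. Cnga1 had 1581.5 ± 31.1 TPM in control rod TRAP and 126.6 ± 28.5 in control retina, and Cngb1 had 1988 ± 114 and 1205 ± 29.5. Their log2 fold changes were 3.98 ± 0.15 (limma adjusted p = 3.236e-10) and 1.25 ± 0.11 (limma adjusted p = 4.054e-07). Slc24a1, the sodium-calcium-potassium exchanger of the rod outer segment, had 1708 ± 92.6 and 274.6 ± 89.8 TPM, and a log2 ratio of 2.99 ± 0.19 (limma adjusted p = 1.417e-08). In control rod TRAP these genes stood at levels of the same order as Atp1b2 (2626 ± 144 TPM) and above Kcnv2 (544.7 ± 26.0 TPM). Under the authors' scaling alone 1 gene in each of the 3 lists left the higher group in control, where that scaling put the median of all genes at -0.62.

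Loss of Abca4 left no call among the 4 genes in rods. Abca4 itself, the deleted gene, also went without a call there, at -5.79 ± 1.81 (SE; adjusted p of 0.4132 from limma). Its control and Abca4Ko libraries did not overlap, but those of Abca4Ko were uneven, with 195, 365 and 13156 scaled counts. A missing call alone is therefore not read as an unchanged level, and each gene is given with its interval. In rod TRAP the log2 fold change of Abca4Ko over control was -0.40 for Atp1b1 (95% interval -0.88 to 0.09, limma adjusted p = 0.5777), 0.01 for Atp1b2 (-0.19 to 0.20, adjusted p = 0.9858), 0.05 for Atp1b3 (-0.25 to 0.35, adjusted p = 0.9272) and 0.12 for Kcnv2 (-0.09 to 0.34, adjusted p = 0.7311). The libraries of the genotypes overlapped for all 4 genes. No gene of the 4 had an unadjusted limma p under 0.05 either, and 1.13% of the 13104 genes tested were called (0.733% higher, 0.397% lower in Abca4Ko). Non-overlapping libraries were seen for 17.6% of genes. The interval for Atp1b2 was the narrowest, and that for Atp1b1, the gene with the fewest counts, the widest. Kcnv2 was uneven in Abca4Ko rod TRAP, where replicate 1 (432.4 TPM) was below and replicates 2 and 3 (635.9 and 659.3) above all 3 control libraries. In these Abca4Ko replicates 1, 2 and 3 the cone marker sum was 654.5, 865.9 and 837.7 TPM, and the rod marker sum 249240, 232990 and 231300. In control rod TRAP the cone sum was 692.1, 604.6 and 590.4 TPM. What part RNA of cones had in the Kcnv2 values was not tested. Without Abca4Ko replicate 1 its log2 fold change was 0.22 (limma adjusted p = 0.0273426), and over all alternatives the adjusted p ran from 0.02734 to 1.

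In retina the log2 fold change of Abca4Ko over control was 0.03 for Atp1b1 (95% interval -0.40 to 0.45, limma adjusted p = 0.9542), -0.11 for Atp1b2 (-0.57 to 0.36, adjusted p = 0.8208) and -0.04 for Atp1b3 (-0.39 to 0.32, adjusted p = 0.9239). The intervals were wider than in rod TRAP for Atp1b2 and Atp1b3. Kcnv2 had 0.47 (-0.03 to 0.98, unadjusted p = 0.06342, limma adjusted p = 0.4222), and all 3 Abca4Ko libraries lay above all 3 control libraries on the CPM scale, as for 10.4% of the 16964 genes tested, or 19.9% in either direction. In TPM they overlapped, since control replicate 2 (221.2) was above Abca4Ko replicate 1 (207.5). Control replicate 3, the lowest, was also the lowest of the control retina libraries for Cnga1 (95.1 TPM) and Slc24a1 (171.3 TPM), although its rod marker sum was the highest of them. Without that library the value for Kcnv2 was 0.24. In retina 0.106% of genes were called (0.0884% higher and 0.0177% lower in Abca4Ko), and none of the 4, with no unadjusted p under 0.05 among them. Here too the deleted gene was missed, with Abca4 at -5.60 ± 1.59 (SE; adjusted p of 0.3998 from limma), so the same limit holds.

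**Figure D4:**
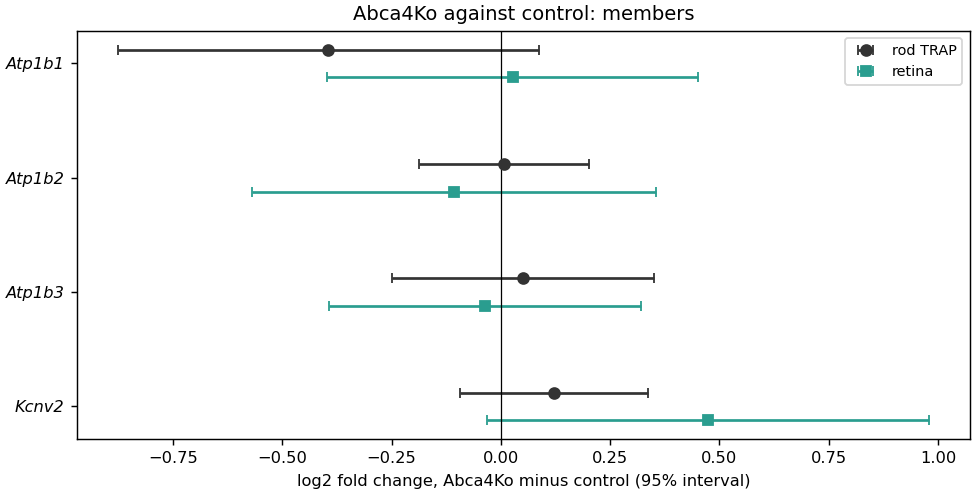
Log2 fold change of Abca4Ko minus control with its 95% interval for the 4 genes, in rod TRAP (black circles) and retina (green squares). All 8 intervals include 0, and Kcnv2 in retina, at 0.47, comes nearest to leaving it out.

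The fraction difference itself did not pass a test of change with genotype for any of the 4 genes. The interaction was -0.45 for Atp1b1 (95% interval -1.08 to 0.17, limma adjusted p = 0.5733), 0.09 for Atp1b2 (-0.37 to 0.54, adjusted p = 0.8819), 0.06 for Atp1b3 (-0.34 to 0.47, adjusted p = 0.906) and -0.38 for Kcnv2 (-0.95 to 0.20, adjusted p = 0.6066). Over all 17273 genes tested, 0.00579% were called, and no unadjusted p among the 4 was under 0.05. Of the 3 lists, limma called no pump gene (5 tested) and no cation gene (11 tested) with genotype in rod TRAP, and none had an unadjusted p under 0.05. In the channel list 2 of 7 were called, 1 higher and 1 lower in Abca4Ko. The higher one is not reported here. The lower one, chosen for mention after its value was seen, was Kcng4, a modifier subunit gene like Kcnv2. Kcng4 had low values, 2.03 ± 1.14 TPM in control rod TRAP and 0.5 ± 0.173 in Abca4Ko rod TRAP (SD, n = 3). Its log2 fold change was -1.51 ± 0.30 (SE; limma adjusted p = 0.04228). Over the other settings tried, short of leaving out libraries, the limma adjusted p ran from 0.01014 to 0.3566. Kcng4 was not called under the authors' scaling alone, as log2(CPM + 2), on either TPM scale, without trend or robust, or with the replicate block. In retina it had a mean of 15.6 TPM in control and 11.0 in Abca4Ko, with a log2 fold change of -0.63 (limma adjusted p = 0.4071). In retina limma called 0 of 13, 16 and 12 genes of the pump, channel and cation lists, beside 0.106% of all genes. At an unadjusted p under 0.05 there were 3, 1 and 2. The share of all genes under that unadjusted threshold was not counted, so these counts are not read as a result about the lists.

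The minor subunits varied between retina libraries. In Abca4Ko retina replicate 1, Atp1b1 (166.9 TPM) and Atp1b3 (55.9 TPM) were at their lowest in retina, and the sums of the Müller glia (3316.1 TPM), bipolar (1095.4 TPM) and ganglion cell markers (630.3 TPM) were at their lowest of the 6 retina libraries as well. Atp1b2 varied least, with a coefficient of variation of 5.12% over the 6 rod TRAP and 7.18% over the 6 retina libraries in TPM. For Atp1b1 the same values were 32.3% and 25.0%, and for Kcnv2 14.7% and 26.0%. The part of cell make-up in this spread was not tested.

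The pattern of each gene over the 12 libraries was set beside that of 9196 genes with a mean of at least 10 CPM (scaled counts per 1e+06), as Pearson's r of log2(CPM + 0.5) and as a description, since all points share the difference between fractions. Nearest to Atp1b1 were Ttc9 (r = 0.9989), Diras2, Cplx2, Synpr and Syt7, of which Cplx2, Synpr and Syt7 encode proteins of synaptic vesicle release. Nearest to Atp1b2 were Laptm4b (r = 0.9973), Prph2, Ccndbp1, Clstn1 and Thoc5, where Prph2 encodes peripherin-2 of the disc rim. Atp1b3 was nearest to Chrna6 (r = 0.9981), a nicotinic receptor gene, and then Nsg1, Ube2ql1, Nacc2 and Iglon5. Kcnv2 was nearest to Klhl23 (r = 0.9989), Ubxn7, Lrit1, Wdr47 and Epb41l5, of which Lrit1 encodes a photoreceptor synapse protein. After each group mean was subtracted, Kcnv2 was still nearest to a set with Ubxn7 (r = 0.9922) and Klhl23 (r = 0.9877), behind Mob1a (r = 0.9963). Atp1b2 was then nearest to Selenok (r = 0.9903), Atp1b1 to Kif5a (r = 0.9715), the gene of a neuronal kinesin, and Atp1b3 to Adgra3 (r = 0.8921). Between the members, Atp1b1 and Atp1b3 had r = 0.991 over the 12 libraries and -0.0527 after group means were subtracted.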

How the data were processed

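RNA before and after rod TRAP was made into cDNA (10 ng for TRAP and 5 ng for lysate, per the labels) and sequenced. The submitters' processing notes name CASAVA 1.8.2, HISAT2, edgeR, DESeq2 and the GRCm39 build without giving each a role. The authors deposited a table of whole-number scores, read counts scaled within each fraction to a common total (17096515 to 17097707 in rod TRAP and 17860761 to 17862326 in retina), and a table in which the authors give TPM, scaled by length and to a total of 1e+06. The depth before scaling is not given in the sources used here, so no count model was used, and no interval for counting error is given. Factors from the trimmed mean of M values (TMM) were applied to the authors' scaled scores, which were tested as log2(CPM + 0.5) with limma 3.58.1 in R 4.3.3 (trend, robust, two-sided, Benjamini-Hochberg over all genes with at least 10 in at least 3 libraries, threshold 0.05). The method was tested on simulated data. For the comparisons of fractions, rod TRAP and retina there shared the same means but for a small set of genes. That test could not check the scaling between fractions, since most genes differ between them in the data. The labels do not say that replicates were separate animals, so p-values measure the spread between these libraries.

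The 4 genes and the lists were chosen with earlier results of these data known. From each list, the tested genes with the 4 highest mean TPM in either fraction were to be named, together with the 5 genes nearest to each member, and some of the genes so selected are not reported here. Same-numbered rod TRAP and retina libraries deviated together from their group means (r = 0.344 to 0.716 over 3710 genes with a mean of at least 50 CPM). Differently numbered libraries had r = -0.748 to 0.546, which subtracting the means of 3 libraries lowers by construction. Abca4Ko rod TRAP replicate 2 was nearer to retina replicate 3 (r = 0.546) than to retina replicate 2 (r = 0.344). With that exception, numbers were taken to pair libraries across fractions, as a check of the data and not from the labels. Abca4Ko and control libraries share a number alone (r = -0.652 to -0.167). Alternatives were other scalings, filters, pseudocounts, TPM, a fit on all 12 libraries, the replicate block and leaving out each library. Leaving out replicate 3 of a genotype in both fractions, and splitting list counts by whether a gene passed the filter in each fraction by itself, were added after the data were seen. Positions are those of GRCm38, not of the build of the tables. Figures were drawn with matplotlib 3.10.9.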

Additional observations from a re-analysis of the deposited data

How the results depend on the processing

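Of 355 refits of the 4 genes over the alternatives, 332 kept direction and side of the threshold. The fraction calls of Atp1b1, Atp1b3 and Kcnv2 held in each alternative run. Atp1b2 lost its fraction call under the authors' scaling alone (0.0839 in control, 0.193 in Abca4Ko) and, in Abca4Ko, without Abca4Ko replicate 3 in both fractions (0.62). Kcnv2 passed with genotype in rod TRAP in 1 refit, without Abca4Ko replicate 1, and its values over libraries left out ran from 0.0558 to 0.218. Values near 0 changed sign with no call. With genotype in rod TRAP these were Atp1b2 (-0.00135 under the authors' scaling alone, -0.0746 and -0.0747 as log2(TPM + 1) and log2(TPM + 0.1), -0.0245 in the fit on all 12 libraries, -0.0606 to 0.0448 over libraries left out) and Atp1b3 (-0.0363 and -0.0398 on the TPM scales). With genotype in retina they were Atp1b1 (-0.00529 and -0.00549 on the TPM scales), and over libraries left out Atp1b1 ran from -0.0652 to 0.199, Atp1b2 from -0.237 to 0.0205 and Atp1b3 from -0.104 to 0.0710. In the interaction, over libraries left out, Atp1b2 ran from -0.0514 to 0.193 and Atp1b3 from -0.0703 to 0.151, and Atp1b2 was -0.0249 without Abca4Ko replicate 3 in both fractions. The cause was not tested for any of these.

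The count of all genes called moved more. In rod TRAP 148 were called with genotype, but 80 at a mean of at least 5 CPM, 58 and 40 on the TPM scales, 94 in the fit on all 12 libraries, 42 without trend or robust and 30 to 595 with a library left out, the highest without Abca4Ko replicate 1. In retina 18 were called, but 33 with no filter, 3 at a mean of at least 5 CPM, 38 and 35 on the TPM scales, 62 in the fit on all 12 libraries, 46 with the replicate block and 1 to 21 with a library left out. In Abca4Ko 10276 differed by fraction, but 6594 to 9819 with a library left out, where fewer genes pass the filter by construction, and 5716 without replicate 3 in both fractions. The interaction had 1, and 3 on each TPM scale. In control 48.6% of fraction calls were higher in rod TRAP, and 26.3% under the authors' scaling. In Abca4Ko these were 47.4% and 22.6%. The replicate block changed no call of the 4 genes, with the fraction difference of Atp1b2 in Abca4Ko at an adjusted p of 0.00143 (limma). In the fraction and interaction fits it pairs rod TRAP and retina libraries by number. In the genotype fits it pairs Abca4Ko with control libraries, which share a number alone. Taking the share of beta subunits from scaled counts gave Atp1b3 0.328% in control rod TRAP, 0.338% in Abca4Ko rod TRAP and 3.43% in control retina. Precision is limited by 3 libraries a group and, for Atp1b1 in rods, by its low values.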
